A study of Mus musculus with 8 samples.

Results

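The 10 pluripotency genes Pou5f1, Nanog, Zfp42, Klf4, Esrrb, Tfcp2l1, Dppa5a, Tdgf1, Utf1 and Tbx3 were followed in day 6 mouse retinal organoids after degradation of METTL3, the methyltransferase responsible for most N6-methyladenosine (m6A) in messenger RNA, was induced. They were taken by gene name from tables of 35494 loci (1 h) and 35541 loci (8 and 24 h), and each was found in every table. All samples came from mouse cells of the Rx:GFP line, and FKBP12F36V-HA is fused to the C terminus of Mettl3 at both endogenous alleles in every group, the untreated one included. The small molecule dTAG-13 binds that fusion and recruits a ubiquitin ligase, which sends the protein for degradation. The untreated group (0 h) and the groups given 125 nM dTAG-13 for 1, 8 or 24 h had 2 samples each, 8 in all, and all were collected together; the labels also name 2 h, which was not analysed here. The series' design gives day 6, while the treatment protocol names day 5 and day 6 without assigning samples to either. The duplicates went through separate rounds of library preparation, and the labels do not say that they came from separate cultures. The labels do not say whether the 0 h samples received solvent, or whether the line is a single clone. METTL3 protein was not measured here.

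Naive pluripotency is the state of the early epiblast and of mouse embryonic stem cells. It is held by a network of transcription factors in which POU5F1 (OCT4) and NANOG act with ESRRB, TFCP2L1, KLF4 and TBX3, and it is sustained by LIF signalling through STAT3. As cells leave this state towards neural and then eye field identity, these transcripts are lost. In embryonic stem cells several of them are known to carry m6A, and cells without METTL3 are known to leave the naive state poorly.

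Each deposited table sets 1 treated time against 0 h and gives every locus 1 FPKM value for each condition, which pools the duplicates, with an interval whose level the tables do not state. The spread between replicates is therefore not visible and no p-value is given. FPKM counts fragments relative to transcript length and to library depth, so levels can be compared between genes approximately. The ± SE beside a log2 ratio comes from the count variances the authors deposited. A gene was called changed where its FPKM differed at least 1.5-fold after addition of 0.1 FPKM, provided that its intervals in the 2 conditions were apart. Conditions summed to between 31361518 and 32562075 estimated counts. The eye field and retinal genes Rax, Pax6, Six3, Six6, Lhx2 and Otx2 stood between 49.5 and 142 FPKM at 0 h in the 8 h table, so these 6 markers of the labelled tissue were present.

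Of the 10 genes, 2 fell and 1 rose at 24 h, and none was called at 1 or 8 h. Tdgf1 fell to 10.9 FPKM and Dppa5a to 109 FPKM, while Tbx3 rose to 5.61 FPKM. At 1 h, 0.402% of all 13690 tested loci were called (0.117% higher, 0.285% lower). At 8 h it was 4.43% of 13825 (3.49% higher, 0.94% lower), and at 24 h 5.48% of 13910 (3.83% higher, 1.65% lower), against 3 of these 10 genes. All 10 passed the filter of at least 1 FPKM at each time. They were chosen as pluripotency genes still detected at day 6, so their passing it is not a result. For the 3 times in order, the median of their log2 ratios was 0.07, -0.17 and -0.23, against 0.01, 0.01 and 0.02 over all tested loci. In these bulk samples, fewer cells of a type and less RNA per cell cannot be told apart.

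In untreated organoids the 10 transcripts spanned an 88.3-fold range of FPKM. Dppa5a had by far the highest value, at 200 FPKM (interval 161 to 239), which exceeded 97.0% of the 11968 named loci with at least 1 FPKM. Pou5f1 followed at 34.7 (27.2 to 42.3), then Tdgf1 at 22.7 (18.0 to 27.4), Nanog at 20.7 (16.6 to 24.8), Zfp42 at 20.0 (15.9 to 24.1) and Utf1 at 18.0 (14.1 to 22.0). From Pou5f1 to Utf1, each interval overlapped that of its neighbour in the order. Esrrb stood apart from its neighbours at 9.25 (7.04 to 11.5). Tbx3 at 2.82 (2.06 to 3.59), Tfcp2l1 at 2.67 (2.03 to 3.32) and Klf4 at 2.26 (1.61 to 2.92) formed a low trio with overlapping intervals. The median over named loci was 14.5 FPKM. Dppa5a has a short transcript of 619 bases, and its lead was smaller before scaling by length. It had 2215 estimated counts, against 1358 for Nanog and 1053 for Pou5f1. The 88.3-fold range and the size of the Dppa5a lead thus depend on how length was scaled. The 0 h libraries enter all 3 tables, and the 0 h value of each gene varied by at most 1.02-fold between them.

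**Figure D1:**
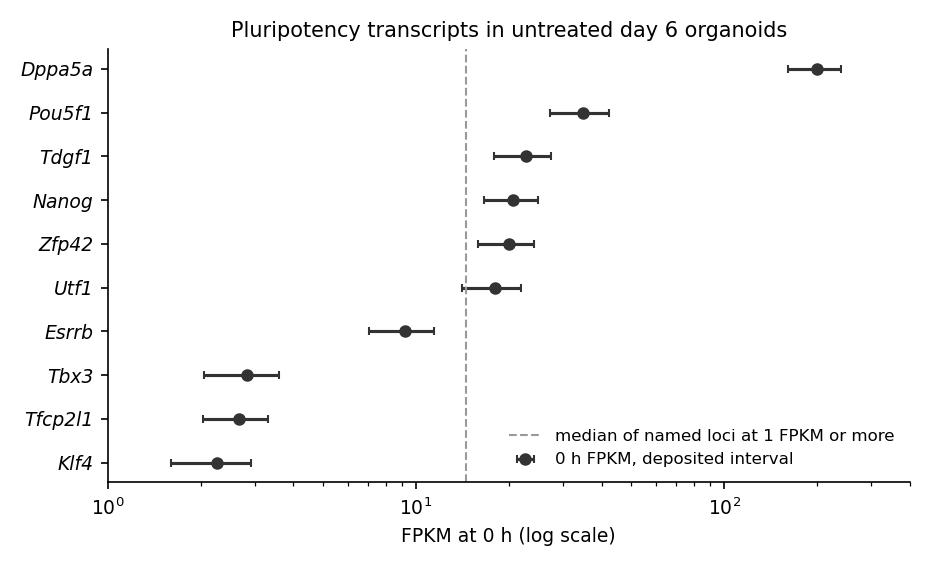
FPKM of the 10 pluripotency genes at 0 h in the 8 h table, on a log axis; points are the deposited values, bars the deposited intervals, and the dashed line the median of 11968 named loci with at least 1 FPKM. Dppa5a stands alone at 200 FPKM, 5 genes lie between 18.0 and 34.7, and Tbx3, Tfcp2l1 and Klf4 lie below 3 FPKM.

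Pou5f1 encodes the POU-domain factor OCT4, which pluripotent cells of all states require. It lies on the plus strand of chromosome 17 at 35506018 to 35510772 (GRCm38). Its FPKM was 34.3 (26.3 to 42.3) at 0 h and 34.4 (26.1 to 42.8) at 1 h. It was 34.7 (27.2 to 42.3) and 25.6 (20.0 to 31.2) in the 8 h table, and 34.8 (27.2 to 42.5) and 28.8 (22.5 to 35.1) in the 24 h table. The treated values at 8 and 24 h were thus below 0 h with overlapping intervals, and the log2 ratios were 0.01 ± 0.23, -0.44 ± 0.21 and -0.27 ± 0.21.

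Nanog encodes a homeodomain factor that stabilizes the naive network. Its FPKM was 20.4 (16.01 to 24.9) before and 21.5 (16.8 to 26.2) after 1 h, 20.7 and 20.6 (16.5 to 24.7) in the 8 h table, and 20.8 (16.5 to 25.0) and 18.9 (15.0 to 22.8) in the 24 h table. The values before and after treatment lay close together at each time, with log2 ratios of 0.07 ± 0.22, -0.01 ± 0.20 and -0.13 ± 0.21. In the 1 h table a second, overlapping locus also bore the name Nanog, at 0.690 FPKM at 0 h and 0.984 at 1 h, and was not used. The pseudogenes Nanog-ps1 and Nanog-ps2 match the transcript at 97.6% of 245 and 88.6% of 526 bases in GENCODE M21. How reads that match more than 1 copy were assigned is not given in the sources used here, so the Nanog value is uncertain to that extent.

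Zfp42, known as Rex1, encodes a zinc finger protein used as a marker of the naive state. Its FPKM was 19.6 (15.3 to 24.0) and 23.6 (18.5 to 28.6) in the 1 h table, 20.0 and 24.1 (19.2 to 28.9) in the 8 h table, and 20.1 (15.9 to 24.3) and 22.8 (18.2 to 27.5) in the 24 h table. The treated value was above 0 h each time, against the same 0 h libraries and with overlapping intervals. The log2 ratios were 0.26 ± 0.22, 0.26 ± 0.21 and 0.18 ± 0.21. The pseudogene Zfp42-ps1 matches the transcript at 98.1% of 266 bases, which leaves the same uncertainty.

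POU-domain factors recognise the octamer, so the promoter windows of RefSeq (GRCm38.p6, 250 bases before to 50 after each annotated start) were searched on both strands for its core, TTTGCAT. Windows were found for 8 of the 10 genes, the exceptions being Dppa5a and Tbx3. The core was in those of Nanog and Zfp42, both shown here 5′ to 3′ on the gene's strand with the core in capitals because they are the only matches among the 8. Among all 27025 genes with such windows, 5.24% held the core.
Nanog, chr6:122707403-122707431, plus strand: ttacagcttctTTTGCATtacaatgtcca
Zfp42, chr8:43307177-43307205, minus strand: ctgaagaggcaTTTGCATaactgagcaag
The Nanog core starts 75 bases before one annotated start and 151 before another, and that of Zfp42 starts 185 bases before its start. A match of letters is a description and not evidence of binding.

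Esrrb, an orphan nuclear receptor of the naive network, had 9.13 FPKM (6.76 to 11.5) before and 8.22 (6.05 to 10.4) after 1 h, and the later treated values were 8.18 (6.24 to 10.1) and, after 24 h, 8.18 (6.02 to 10.3). Its log2 ratios were -0.15 ± 0.22, -0.17 ± 0.21 and -0.18 ± 0.21. Tfcp2l1, a CP2-family factor downstream of LIF and STAT3, had 2.64 (1.96 to 3.32) and 2.72 (1.74 to 3.70) in the 1 h table. After 8 h it had 2.05 (1.51 to 2.59), from 2.67, and after 24 h 2.09 (1.25 to 2.93), from 2.68. Its log2 ratios were 0.04 ± 0.23, -0.37 ± 0.22 and -0.35 ± 0.22. Intervals overlapped for both genes at each time, so no change was detectable.

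Klf4, a Krüppel-like factor also expressed outside pluripotent cells, had 2.23 FPKM (1.53 to 2.94) at 0 h and 2.36 (1.65 to 3.07) at 1 h. It had 2.26 (1.61 to 2.92) and 3.06 (2.202 to 3.92) in the 8 h table, and 2.27 (1.60 to 2.94) and 2.88 (2.11 to 3.66) in the 24 h table. The log2 ratios were 0.08 ± 0.29, 0.42 ± 0.26 and 0.33 ± 0.26, with the largest SE of the 10 genes at each time. Utf1, a chromatin-associated protein of undifferentiated cells, had 17.8 (13.6 to 22.0) and 19.4 (14.8 to 23.9) in the 1 h table. It reached 15.1 (11.7 to 18.5) at 8 h, from 18.0, and 14.7 (11.3 to 18.0) at 24 h, from 18.1 (14.1 to 22.1). Its log2 ratios were 0.12 ± 0.24, -0.26 ± 0.23 and -0.30 ± 0.23. Neither gene was called at any time.

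Dppa5a encodes a small KH-domain RNA-binding protein of early embryos and stem cells. It has 3 exons at positions 78367052 to 78368177 of chromosome 9 (minus strand), and a transcript of 619 bases. Its FPKM was 197 (156 to 238) at 0 h and 217 (171 to 262) at 1 h. It was 200 (161 to 239) and 177 (142 to 212) in the 8 h table, and 200 (161 to 240) and 109 (86.7 to 131) in the 24 h table. The intervals overlapped at 1 and 8 h and were apart at 24 h, where the gene was 1.84-fold lower. The log2 ratios were 0.14 ± 0.21, -0.17 ± 0.20 and -0.88 ± 0.21, and the last was below those of all but 3.08% of tested loci. Estimated counts went from 2192 to 1177 at 24 h. The copies Dppa5b and Dppa5c, annotated in GENCODE M21, are each 97.0% identical to the Dppa5a transcript over 297 bases. Copies were looked up by name and not searched for, so this gene and the others may have more. The Dppa5a value is uncertain in the same way as that of Nanog.

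Tdgf1 encodes CRIPTO, a cell-surface co-receptor through which Nodal signals, and is abundant in pluripotent cells. It occupies positions 110939603 to 110946158 of chromosome 9 (minus strand) and has 6 exons. Tdgf1 stood at 22.4 FPKM (17.4 to 27.5) and 23.3 (17.9 to 28.6) in the 1 h table. It was 22.7 (18.0 to 27.4) and 15.9 (12.6 to 19.3) in the 8 h table, and 22.8 (17.9 to 27.6) and 10.9 (8.49 to 13.4) in the 24 h table. The treated value was below 0 h at 8 h with overlapping intervals, and 2.08-fold lower with intervals apart at 24 h. The log2 ratios were 0.05 ± 0.22, -0.51 ± 0.21 and -1.05 ± 0.22. Estimated counts went from 1236 to 597 at 24 h. The processed pseudogenes Tdgf1-ps1 and Tdgf1-ps2 match the transcript at 98.8% of 512 and 92.9% of 495 bases, so the same uncertainty applies.

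Tbx3 encodes a T-box factor that belongs to the naive network and, in vertebrate eye development, to the eye field and the dorsal retina. The gene has 7 exons on the plus strand of chromosome 5 at 119670669 to 119684724. Its FPKM was 2.78 (1.97 to 3.59) and 3.30 (2.25 to 4.35) in the 1 h table. It was 2.82 (2.06 to 3.59) and 4.47 (3.38 to 5.56) in the 8 h table, and 2.83 (2.05 to 3.62) and 5.61 (4.23 to 6.99) in the 24 h table. At 8 h the ratio of 1.56-fold passed the fold criterion, but the lower bound after treatment lay just under the upper bound at 0 h. At 24 h the intervals were apart and the gene was 1.95-fold higher. The log2 ratios were 0.24 ± 0.26, 0.64 ± 0.23 and 0.96 ± 0.23, and the last exceeded those of 96.6% of tested loci. The locus overlaps Tbx3os1, a transcript that had 1.93 and 11.1 estimated counts at 0 and 24 h, against 393 and 801 for Tbx3.

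**Figure D2:**
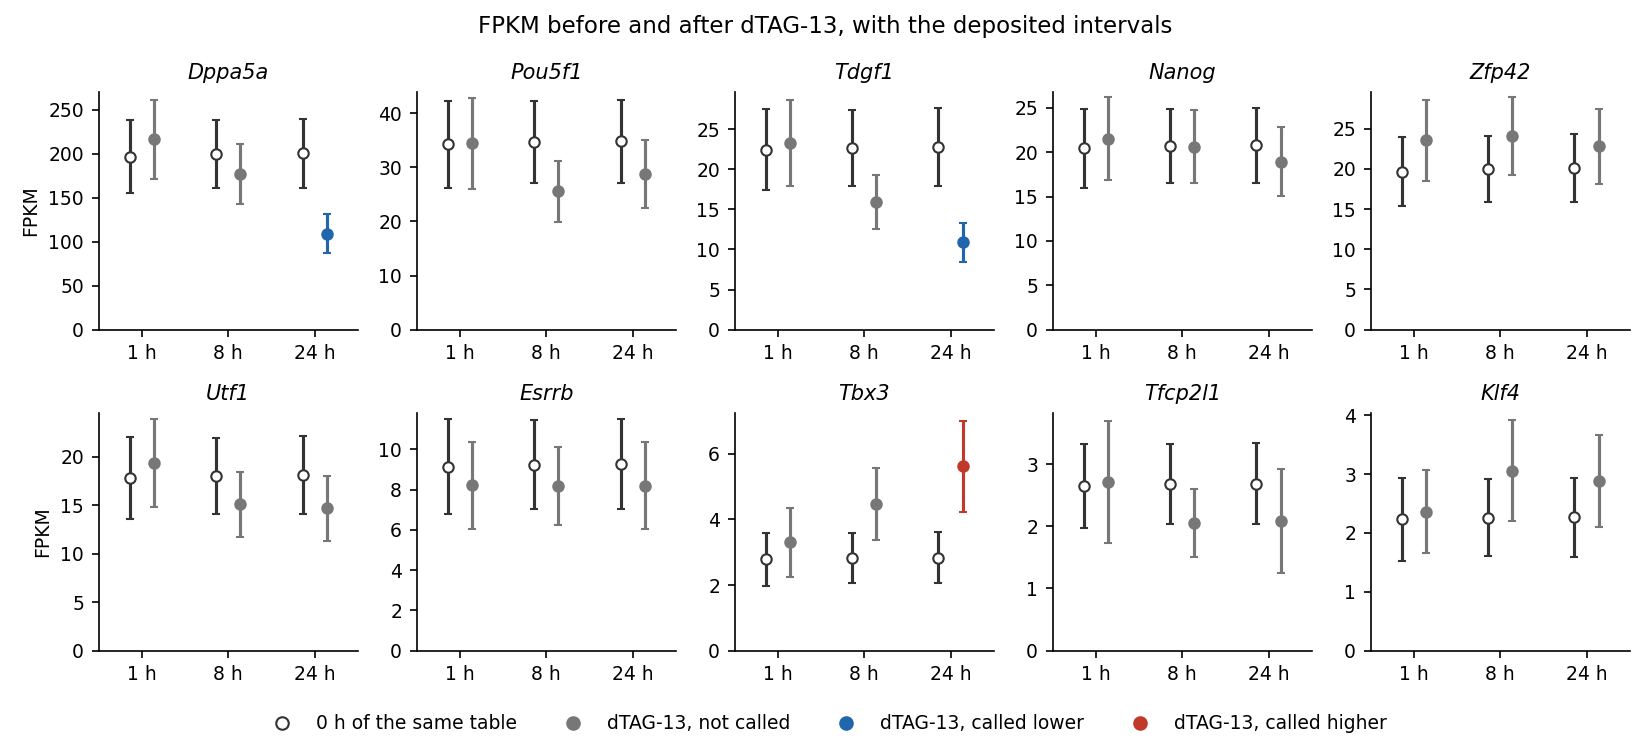
FPKM of each gene in the 1, 8 and 24 h tables; open points are 0 h, filled points the treated condition, bars the deposited intervals, and each vertical axis starts at 0. Intervals are apart for Dppa5a and Tdgf1 (lower, blue) and Tbx3 (higher, red) at 24 h, and overlap in the other 27 comparisons.

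Set side by side, the 3 called genes had no call before 24 h, and the difference between times was not tested. At 1 h, 9 of the 10 ratios were above 0 (8 by estimated counts), all between -0.15 and 0.26. At 8 and 24 h, 7 of 10 were below 0, and Zfp42, Klf4 and Tbx3 were the 3 above it at both times. These comparisons share the 0 h libraries. The size of the ratios without regard to sign had a median of 0.10, 0.32 and 0.32, against 0.12, 0.23 and 0.26 over all tested loci.

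**Figure D3:**
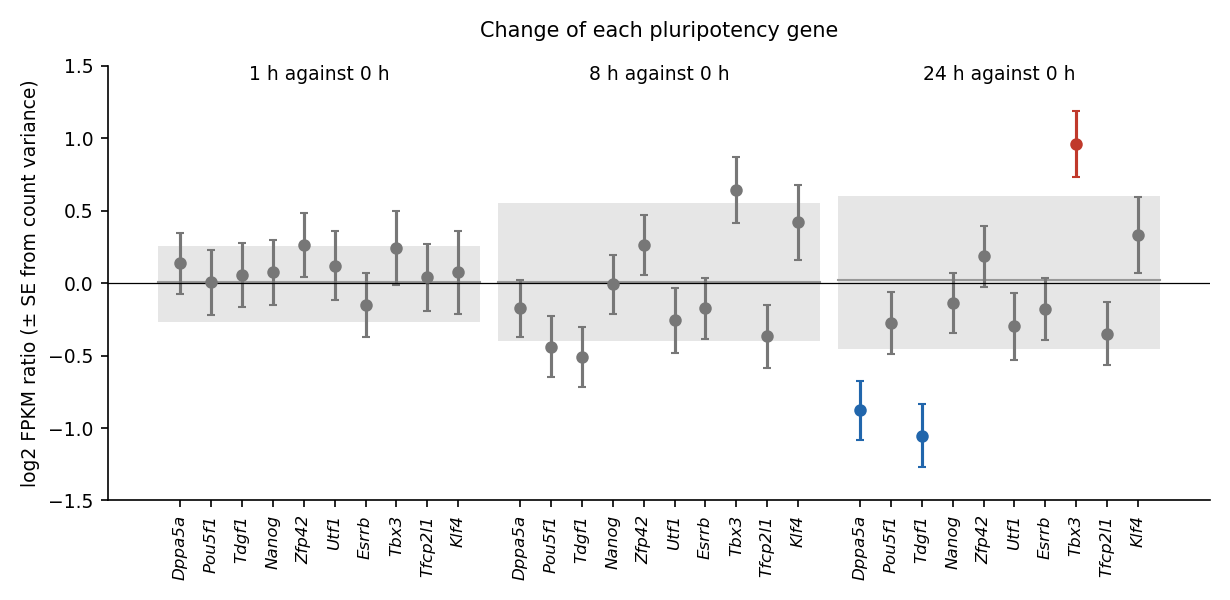
Log2 FPKM ratio of each gene at 1, 8 and 24 h against 0 h of the same table, with bars of 1 SE from the deposited count variances; the grey band spans the 10th to the 90th percentile of all tested loci and the grey line their median. At 24 h Tdgf1 (-1.05) and Dppa5a (-0.88) lie below the band and Tbx3 (0.96) above it.

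METTL3 acts co-transcriptionally on a short consensus that includes GGACT. Exon junction complexes are known to keep m6A away from nearby junctions, so it gathers in long exons and near stop codons. For each gene the representative GENCODE transcript was therefore described by its junctions and its GGACT motifs; m6A itself was not measured in these files. GGACT was in 9 of the 10 transcripts, against 92.2% of 10964 tested genes. The exception was Dppa5a, and 1.35% of tested genes had a shorter transcript than its 619 bases. Tfcp2l1 had 16 motifs, Esrrb 8, Tbx3 7, Klf4 5, Nanog 4, Tdgf1 3, Zfp42 and Utf1 2 each and Pou5f1 1. These counts depend on transcript length. Per kilobase of transcript Tfcp2l1 had 1.73 motifs and Nanog 1.81. The 10 genes had a median of 1.59 per kilobase, against 1.05 over the tested genes.

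The site nearest the end of the coding sequence is shown 5′ to 3′, with the motif in capitals. Only sites whose 21-base window lies within 1 exon were considered. The nearest site is given for both called genes that have one, and for Tfcp2l1 and Utf1. Tfcp2l1 and Utf1 were not called, and their sites lie nearer that end than those of the other genes.
Tdgf1, chr9:110940771-110940791, minus strand: agcatccgGGACTccgtgtca
Tbx3, chr5:119682910-119682930, plus strand: gtggctgtGGACTcggggtcg
Tfcp2l1, chr1:118677418-118677438, plus strand: tgaagtgtGGACTctgagcag
Utf1, chr7:139944967-139944987, plus strand: atccttggGGACTtgcgccaa
The A of the motif lies 74 bases from the last coding base in Tdgf1, 169 in Tbx3, 3 in Tfcp2l1 and 10 in Utf1, in the last exon of each. In the uncalled genes not shown it lies 154 bases away in Nanog, 172 in Esrrb, 249 in Zfp42, 324 in Klf4 and 828 in Pou5f1. Of the genes with such a site 1 fell, 1 rose and the others were not called. Only GGACT was counted, so Dppa5a, which has none, may hold another form of the consensus. A link between these sites and the changes was not tested.

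By coding junctions per kilobase of coding sequence, the 10 genes had a median of 3.53, against 6.17 over the tested genes. Zfp42 has its whole coding sequence in 1 exon, Utf1 has 0.983 junctions per kilobase, Klf4 2.76 and Tbx3 2.77, which places these 4 in the lowest of 5 equal groups of genes. Tdgf1 and Tfcp2l1, at 9.75 and 9.74, are in the highest group. At 24 h the lowest group had a median log2 ratio of 0.34, with 15.2% of genes called higher and 1.78% lower. The highest group had a median of -0.12, with 0.319% called higher and 1.60% lower. Tbx3, at 0.96, was above the 90th percentile of its group (0.89). Dppa5a, at -0.88 in the middle group, and Tdgf1, at -1.05, were below the 10th percentiles of theirs (-0.41 and -0.45). Tfcp2l1, at -0.35 with nearly the density of Tdgf1, was within that range, and Utf1, at -0.30, was below the 10th percentile of its group (-0.26).

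**Figure D4:**
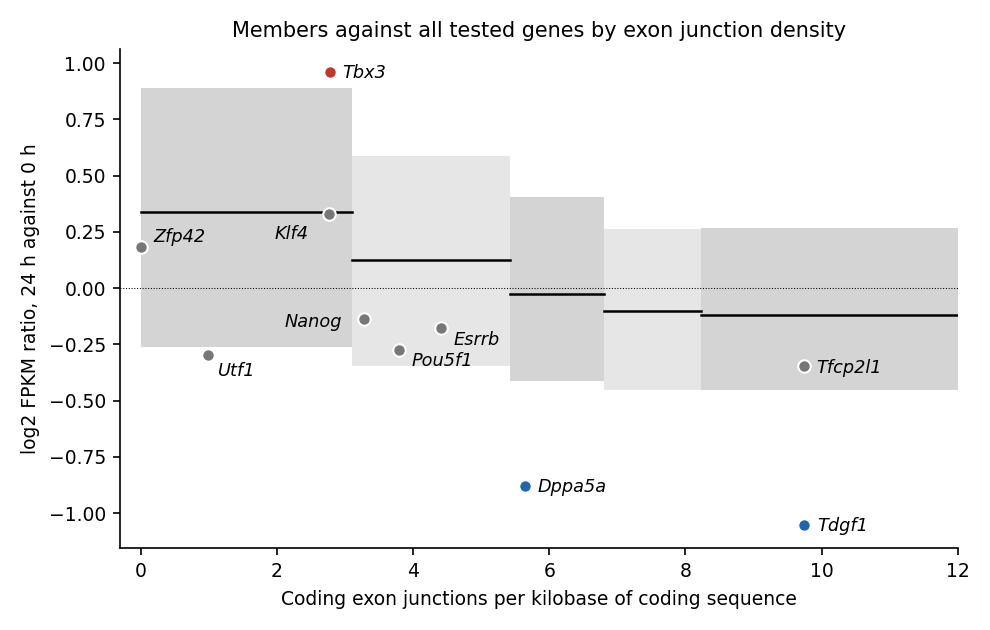
Log2 FPKM ratio at 24 h against coding exon junctions per kilobase of coding sequence; points are the 10 genes, and for each of 5 equal groups of tested genes the line is the median and the grey block the 10th to 90th percentile, drawn to 12 junctions per kilobase. Tbx3 lies above its block, and Tdgf1, Dppa5a and Utf1 lie below theirs.

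Other genes of the same biology were read from lists chosen for their known roles. None of the 12 tested of 13 other naive genes was called at any time, and their median log2 ratio at 24 h was -0.20. Dppa3, the maternal factor Stella, had 5.77 FPKM (3.93 to 7.61) at 0 h and 3.53 (2.16 to 4.89) at 24 h. Klf2, a partner of Klf4, had 5.66 (4.28 to 7.05) and 8.35 (6.43 to 10.3). None of the 11 tested of 12 other general pluripotency genes was called at any time either, with a median of 0.06 at 24 h. Sox2, the partner of OCT4 that neural cells also express, had 108 FPKM at 0 h and 139 at 24 h with overlapping intervals, and Lin28a had 157 and 148. Formative and primed epiblast genes had no call among the 8, 10 and 9 of 10 tested at 1, 8 and 24 h. In that list Sox3 had 43.4 FPKM (34.9 to 51.9) at 0 h and 64.6 (52.1 to 77.1) at 24 h. Its intervals were apart at 8 and 24 h, but its ratio of 1.49-fold at both times was below the fold criterion. Among 8 genes of LIF and STAT3 signalling, which sustains the naive state, none was called.

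Tdgf1 serves Nodal signalling, and in that list 1 of 11 tested genes was called at 24 h. This was the receptor Acvr2a, which rose from 13.9 FPKM (9.83 to 17.9) to 24.3 (18.0 to 30.5), a log2 ratio of 0.80 ± 0.28. The ligand Nodal had 2.10 (1.38 to 2.83) at 0 h and 1.42 (0.913 to 1.93) at 24 h. Its feedback inhibitors Lefty1 and Lefty2 had log2 ratios of -0.83 ± 0.41 and -0.87 ± 0.35 at 24 h, and intervals overlapped for all 3. At 1 h Lefty1 and Lefty2 had log2 ratios of 0.61 ± 0.34 and 0.35 ± 0.32, also with overlapping intervals. Over the 11 tested genes of the Nodal list the median at 24 h was -0.04, with 4 ratios above 0 and 7 below. Germ cells share several pluripotency genes, and in the germ cell list 1 of 6 tested genes was called at 24 h. Dazl, an RNA-binding protein of germ cells, fell from 1.39 (0.966 to 1.81) to 0.408 (0.205 to 0.611), a log2 ratio of -1.55 ± 0.42.

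Tbx3 is also an eye gene, so markers of the optic vesicle were read beside it. Its paralogue Tbx2 rose at 24 h from 2.35 FPKM (1.75 to 2.96) to 5.18 (4.03 to 6.34), a log2 ratio of 1.11 ± 0.24. The retinoic acid synthesis gene Aldh1a3 fell at 8 h to 22.3 (17.8 to 26.8), from 37.7 (30.4 to 45.1), and at 24 h to 12.4 (9.50 to 15.4), with log2 ratios of -0.76 ± 0.20 and -1.60 ± 0.20. Aldh1a1, which acts in the same pathway, fell at 24 h from 1.52 to 0.292, on 86.6 and 17.3 estimated counts. These were 3 of the 7 tested genes of the dorsoventral list at 24 h. Of 6 eye field and retinal genes, Rax and Lhx2 rose at 24 h, with log2 ratios of 0.66 ± 0.20 and 0.69 ± 0.20, and of 4 tested early neural genes Sox11 rose, by 0.62 ± 0.19.

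Summed FPKM at 0 and 24 h was 334 and 224 for the 10 pluripotency genes, 540.4 and 733 for the 6 eye field and retinal genes, 33.4 and 26.0 for the 8 germ cell genes, and 29.4 and 26.4 for the 12 mesendoderm genes. Dppa5a made up most of the first sum, and the other 9 pluripotency genes summed to 134 and 115 FPKM. Kdr, a receptor of blood vessel precursors, made up most of the mesendoderm sum, with 21.9 FPKM (17.7 to 26.2) and 15.7 (12.7 to 18.8). The other 11 mesendoderm genes summed to 7.51 and 10.7. Of the 6 tested, 5 had a log2 ratio above 0, with a median of 0.41. In the mesendoderm list 6 of 12 genes were under 1 FPKM in both conditions at 24 h, among them T, Mixl1, Gsc and Mesp1, and none was called at any time. The part of cell type shares in the changes of Tdgf1, Dppa5a and Tbx3 was not tested.

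**Figure D5:**
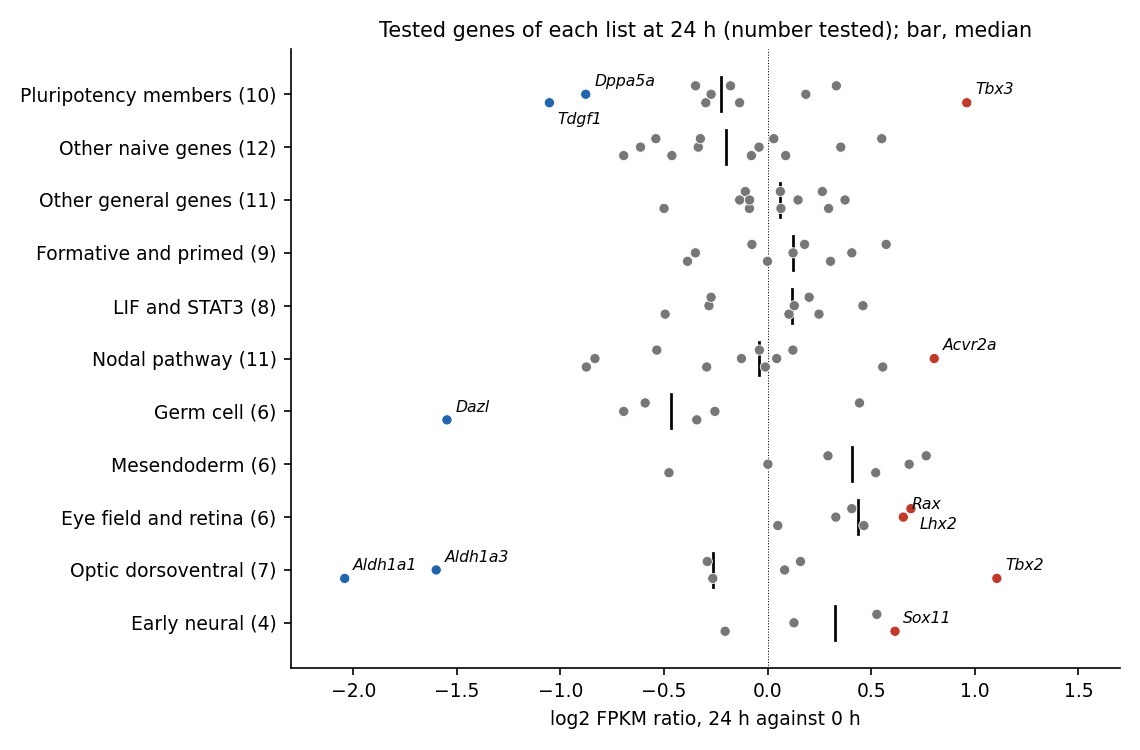
Log2 FPKM ratio at 24 h of every tested gene of the 11 lists, the 10 pluripotency genes among them; grey points were not called, blue were called lower, red higher, black bars are medians, and the number tested stands beside each list. Calls are the 3 named pluripotency genes, Acvr2a, Dazl, Rax, Lhx2, Tbx2, Aldh1a1, Aldh1a3 and Sox11; Otx2 and Dppa3 each stand in 2 lists.

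For the 3 called genes, the loci with the most similar ratios over the 3 times were sought among 10940 others by Euclidean distance, which rests on 4 pooled conditions and the shared 0 h libraries. Nearest to Dppa5a were Ctnnd2, Col9a1 and Stk31, at distances of 0.06, 0.07 and 0.11. Nearest to Tdgf1 were Neto2, Hormad1 and Synpo2l, at 0.04, 0.06 and 0.09. Nearest to Tbx3 were Svbp, Ncald and Nog, at 0.08, 0.08 and 0.09. Of these 9 loci, Col9a1, Neto2 and Synpo2l were called lower and Svbp, Ncald and Nog higher at 24 h, and Svbp was also called at 8 h. The loci were picked by their ratios, so the direction of their calls follows from that choice. Every distance was below the SE of each ratio of the called genes, so which loci lie nearest is not resolved.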

How the data were processed

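Polyadenylated RNA from 8 organoid samples was sequenced as paired-end reads, per the labels' protocols. The 4 groups of 2 replicates were read from the titles. Per the submitters' processing notes, Cufflinks 2.2.1, Cuffdiff and build mm10 were used; the aligner, annotation and strandedness are not given in the sources used here. The authors deposited 3 pairs of tables, each with 0 h and 1 treated time. The FPKM values and their interval bounds were computed by the authors with 1 column per condition. The estimated counts and their variances were likewise deposited with both replicates combined, after scaling within each pair.

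Log2 ratios were formed within tables with 0.1 FPKM added. A locus was tested at 1 FPKM or more in 1 condition with status OK. The SE combines the deposited coefficients of variation of both conditions. Where a name had several rows, the one with the higher mean FPKM was used. Genes were named by rule: the 10 genes, called genes of the other lists, and the 3 nearest ratio patterns of each called gene. Others were added after their values were seen: Dppa3, Klf2, Sox2, Sox3, Lin28a, Nodal, Lefty1, Lefty2, Kdr, the mesendoderm genes T, Mixl1, Gsc and Mesp1 and the eye field markers Pax6, Six3, Six6 and Otx2. The genes and lists were chosen with earlier results of these data known. One gene of the eye field list is not reported here, and that list's counts and sums leave it out. Gene structures came from GENCODE M21 (GRCm38), by APPRIS rank and then coding length, for 96.6% of uniquely named tested loci; 9 of the 10 genes (all but Tbx3) had the same start in the tables. The calling rule was tested on simulated tables with planted changes, whose noise was drawn from the deposited variances. Such tables cannot show how the rule holds for replicate spread that those variances miss. The share of planted changes recovered is not given here, so no error rate of the rule follows from the simulation. Python 3.11.15 and pandas 2.3.3 were used.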

Additional observations from a re-analysis of the deposited data

How the results depend on the processing

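Settings were changed 1 at a time: pseudocounts of 0.01 and 1 FPKM, no filter or a filter of 5 FPKM, a 2-fold threshold, the fold criterion without the intervals, estimated counts in place of FPKM, and ratios centred on their median. Tdgf1 was called lower at 24 h under all 8. Dppa5a and Tbx3 were called at 24 h under 7 of them. Tbx3 passed the 5 FPKM filter only through its treated value, with 2.83 FPKM at 0 h and 5.61 at 24 h. With the 2-fold threshold the number of pluripotency genes called at 24 h was 1. Without the intervals 1 was called at 8 h, Tbx3. No called direction was reversed. Leaving out the intervals or the filter can only keep or add calls, so those settings could not have removed one.

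Over all loci, the 55, 612 and 762 calls at 1, 8 and 24 h became 707, 1896 and 2371 without the intervals, and 217 and 297 at 8 and 24 h with the 2-fold threshold. At 1 h they became 95 without a filter and 30 at 5 FPKM. The 2-fold threshold left 0 calls for the Nodal, eye field and early neural lists at 24 h and for the dorsoventral list at 8 h, and the 5 FPKM filter removed Dazl and Aldh1a1, which took the dorsoventral calls at 24 h from 3 to 2. Without the intervals, calls at 24 h were 2 of other naive genes, 3 of Nodal, 3 of germ cell and 2 of mesendoderm genes; at 8 h they were 2 of Nodal, 1 of germ cell and 2 of dorsoventral genes; and at 1 h 1 each of LIF and Nodal genes.

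No paired analysis was possible because the tables hold 1 column per condition, which also kept replicates from being left out in turn. Pooling limits what the intervals show, since they follow the authors' variance model. Klf4, at about 206 estimated counts, had the widest relative error of the 10 genes.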
